A study of Mus musculus with 12 samples.

Results

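A set of 10 genes that encode proteins of the lipid droplet surface or of droplet assembly were followed in mouse hepatocytes: the 5 perilipins Plin1 to Plin5, the 3 CIDE genes Cidea, Cideb and Cidec, and the 2 FIT genes Fitm1 and Fitm2. They were picked by symbol from the 52636 genes of the expression table, where each of the 10 symbols occurs once, and 8 of the 10 had values high enough to be tested. The 12 libraries come from steatotic livers of 6 mice, 3 wild type (WT) and 3 with a knockout of Ptprk (KO), the gene of a receptor-type tyrosine phosphatase. From each liver, viable hepatocytes were parted on a Percoll gradient by how much fat they held, so that each mouse gave 1 low-fat and 1 high-fat library and each of the 4 combinations with genotype has 3 libraries. Steatosis and the isolation are common to all 4 groups, and high-fat and low-fat are contents of the sorted cells, not diets. The labels used here state no strain, age, sex, diet or design of the knockout allele, and replicates are different mice.

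Hepatocytes store surplus fatty acids as triglyceride in lipid droplets, which bud from the endoplasmic reticulum under a phospholipid monolayer. Perilipins coat that monolayer and set how readily lipases reach the core, CIDE proteins gather at contacts between droplets and promote lipid transfer into the larger one, and FIT proteins are endoplasmic reticulum membrane proteins that help nascent droplets to form. Plin2 is the main coat protein of hepatocyte droplets, whereas Plin1, Cidea and Cidec are best known from adipocytes, and several of these genes are classical targets of PPAR transcription factors.

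Values are reads per 20 M (M for mega) of a library, as deposited. Libraries held an estimated 15.1 to 25 M reads, which puts 3 reads at 2.4 to 3.98 on this scale, a limit that takes account of counting error alone. Ptprk itself lay between 2174 and 2883 in the WT and between 1117 and 1364 in the KO libraries, so every KO library was below every WT library while Ptprk reads were still counted in all of them. Hepatocyte markers fixed as a list of 8 genes (among them Alb and Apob) summed to between 702830 and 888157 in a library. Markers of other liver cells were present, and their sums were higher with high fat in 6 of 6 mice: the 9 stellate cell markers summed to between 148 and 714 in low-fat and between 2182 and 3699 in high-fat libraries, the 9 Kupffer cell or macrophage markers to between 480 and 1365 and between 2124 and 11637, and the 8 sinusoidal endothelial markers to between 979 and 2405 and between 4135 and 13328. In such bulk libraries, fewer cells of a type and less RNA per cell cannot be told apart.

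To compare levels between genes, values were divided by the length of all annotated exons of the gene (GENCODE M21, GRCm38), which may differ from the gene models the reads were counted on. On this scale of reads per 20 M per kb, Plin2 and Cideb were the most abundant in each of the 12 libraries, with a mean level of 3295 for Plin2 (2402 to 4762) and 3196 for Cideb (2936 to 3508). Their ranges overlap, and which of them led differed from library to library. Plin5, a perilipin of oxidative tissues that links droplets to mitochondria, followed at 656.7 (522.8 to 790.1). Fitm1 at 401.3 (134.9 to 821.8), Fitm2 at 373.8 (301.7 to 485.0) and Plin3 at 353.9 (255.4 to 438.2) could not be ordered beyond their spread. Plin4 at 105.4 (33.75 to 257.7) and Cidec at 48.04 (22.09 to 105.1) came next, and Plin4 was above Cidec in each library. Cidea and Plin1 were at the bottom in every library. Plin2 alone made up between 33.6% and 48.2% of the summed length-scaled level of the 10 genes, and Plin1 at most 0.0027%.

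**Figure D1:**
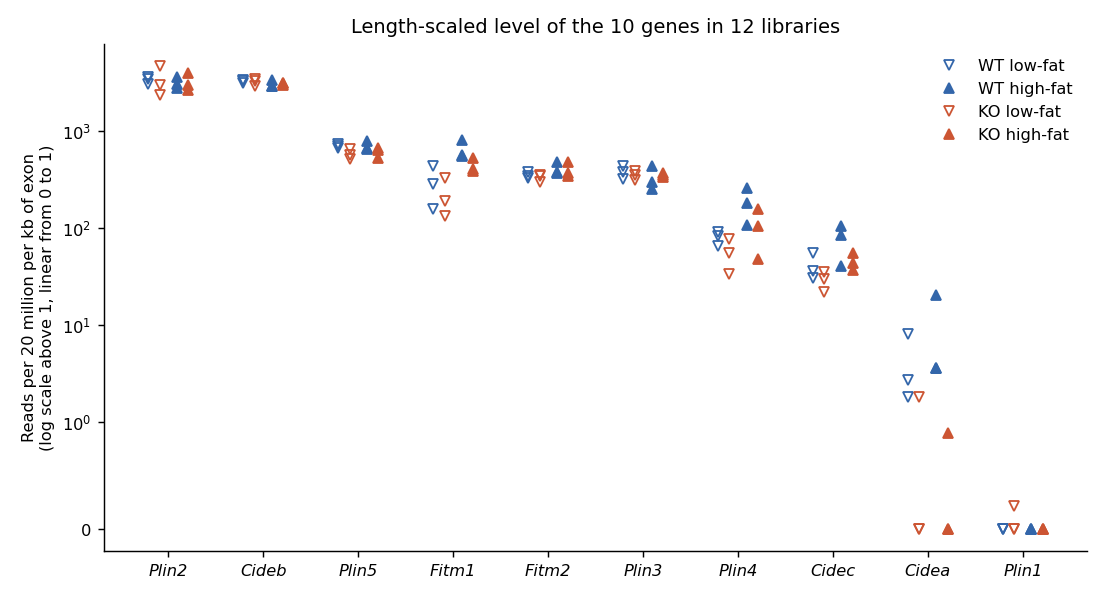
Length-scaled level (reads per 20 M per kb of exon, log scale above 1) of the 10 genes in the 12 libraries, ordered by mean level; open triangles are low-fat, filled triangles high-fat, blue WT and orange KO. Plin2 and Cideb sit near 3295 and 3196, while Plin1 is at 0 in 11 of 12 libraries. The value of Cideb cannot be separated from that of the overlapping gene Nop9.

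Plin2 (ENSMUSG00000028494, chromosome 4, 86648386 to 86670060, minus strand, GRCm38) was at 12353, 10805 and 12753 reads per 20 M in WT low-fat mice 1 to 3 and at 10738, 9773 and 12665 in their high-fat libraries. In KO mice it was at 16724, 8436 and 10559 in low-fat and 13961, 9438 and 10662 in high-fat libraries. The KO mice hold both the highest and the lowest value, and all 4 groups overlap. Between high-fat and low-fat cells over both genotypes no difference was called, with a log2 fold change of -0.16 (limma SE 0.17, adjusted p = 0.635). After scaling between libraries it was lower with high fat in 4 mice and higher in 2.

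Plin3 (ENSMUSG00000024197, chromosome 17, 56277476 to 56292873, minus strand), a widely expressed perilipin that moves from the cytosol onto droplets, ranged from 967 to 1659 reads per 20 M, with both extremes in WT high-fat libraries. With high fat it was lower in 3 of 6 mice as deposited and in 5 of 6 after scaling (log2 fold change -0.19, limma SE 0.14, adjusted p = 0.502). Plin5 (ENSMUSG00000011305, chromosome 17, 56111601 to 56117596, minus strand) varied least among the 4 tested perilipins, from 1091 to 1649. Its low-fat values were 1488, 1414 and 1561 in WT and 1388, 1187 and 1091 in KO, and its high-fat values 1400, 1384 and 1649 in WT and 1423, 1352 and 1110 in KO. The high-fat and low-fat values overlap in both genotypes, and the difference between fractions was -0.05 on the log2 scale (limma SE 0.09, adjusted p = 0.794), or 0.035 under the deposited scaling alone.

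Plin1 (ENSMUSG00000030546, chromosome 7, 79720218 to 79732903, minus strand), the main droplet coat of white adipocytes, had a value of 0 in 11 libraries and of 1 in KO low-fat library 3. A value of 0 still allows up to 2.4 to 3.98 reads per 20 M, depending on the library. Cidea (ENSMUSG00000024526, chromosome 18, 67343604 to 67367785, plus strand), known from brown fat, was at 2, 3 and 9 in WT low-fat, 4, 4 and 23 in WT high-fat, 2, 0 and 0 in KO low-fat and 0, 1 and 0 in KO high-fat libraries. The 2 largest values are those of WT mouse 3, and the KO libraries and WT low-fat library 1 lie under the level of 3 reads. Both genes failed the filter on low values (at least 10 in at least 3 libraries) and were not tested. Of the adipocyte markers fixed as a list of 9 genes, Lep and Ucp1 were at 0 in all libraries, Adipoq reached at most 3 and Retn at most 1, whereas Fabp4, Lpl, Cfd, Car3 and Adrb3 passed the filter. The list summed to between 36941 and 45157 in low-fat and between 44366 and 55544 in high-fat libraries, and most of this sum is Car3, at 36328 to 44381 and 43368 to 51594.

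Cideb (ENSMUSG00000022219, chromosome 14, 55754050 to 55758458, minus strand), the hepatocyte CIDE protein, which also takes part in the lipidation of very low density lipoprotein, stayed within 4369 and 5220 reads per 20 M. With high fat it was lower in 5 of 6 mice, as deposited and after scaling (log2 fold change -0.17, limma SE 0.09, adjusted p = 0.322). The value of Cideb cannot be separated from that of Nop9, a gene of a nucleolar RNA-binding protein on the opposite strand. The exons of both genes share 1136 bases in the annotation, 76.3% of the exon bases of Cideb and 29.9% of those of Nop9. Nop9 had between 94.5% and 97.6% of the value of Cideb in each library, which is a difference of only 104 to 281 reads per 20 M, and over the 12 libraries their log2 levels correlated with r = 0.997. Whether reads were assigned by strand is not given in the sources used here. Without strand, reads in the shared stretch cannot be assigned to 1 of the 2 genes.

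**Figure D2:**
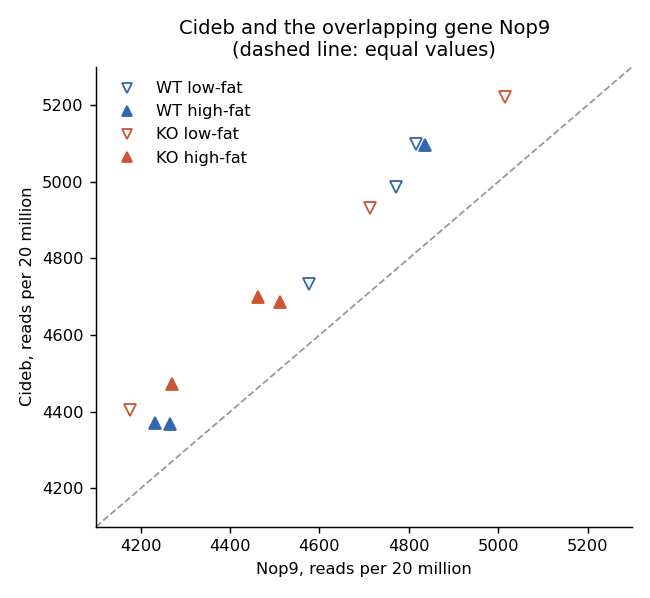
Value of Cideb (y axis) against that of Nop9 (x axis), both in reads per 20 M, for the 12 libraries; open triangles are low-fat, filled triangles high-fat, blue WT and orange KO, and the dashed line marks equal values. All 12 points lie 104 to 281 above the line.

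Fitm1, Plin4 and Cidec, 3 of the 8 tested genes, were higher with high fat in each of the 6 mice, both as deposited and after scaling between libraries. Fitm2 was higher in 6 mice as deposited, by 1.05 to 1.40 times, and in 5 after scaling. Of all 16563 genes tested, 9.57% were higher in 6 of 6 mice after scaling and 12.3% lower, and 0 of the 8 were lower in 6 of 6. The promoters of the 3 are printed from RefSeq (GRCm38.p6, 250 bases before to 50 after the start site) because these genes were higher together, with that of the abundant Plin2, for which no difference was called, for contrast. Capitals mark matches on either strand to 6 motifs: the direct repeat AGGTCANAGGTCA bound by PPAR and RXR, its half-site AGGTCA (contained in the former), the E-box CACGTG, the GC box GGGCGG, the CCAAT box spelled by its name, and the TATA box TATAAA. Fitm1 is at chr14:55575424-55575723 on the plus strand, Plin4 at chr17:56109733-56110032 and Plin2 at chr4:86670010-86670309, both on the minus strand, and Cidec has 2 start sites on the minus strand at chr6:113435711-113436010 and chr6:113434715-113435014.
Fitm1: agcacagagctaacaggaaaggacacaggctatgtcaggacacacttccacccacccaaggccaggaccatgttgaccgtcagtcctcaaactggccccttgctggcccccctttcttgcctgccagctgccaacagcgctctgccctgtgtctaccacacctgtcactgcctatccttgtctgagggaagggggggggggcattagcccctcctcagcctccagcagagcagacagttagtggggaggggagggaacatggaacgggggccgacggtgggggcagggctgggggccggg
Plin4: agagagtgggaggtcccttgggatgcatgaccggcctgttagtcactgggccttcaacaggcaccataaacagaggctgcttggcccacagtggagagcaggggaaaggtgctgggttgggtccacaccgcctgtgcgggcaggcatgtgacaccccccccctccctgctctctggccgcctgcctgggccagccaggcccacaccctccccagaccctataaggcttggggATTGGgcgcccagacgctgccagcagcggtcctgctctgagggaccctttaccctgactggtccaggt
Cidec, start site 1: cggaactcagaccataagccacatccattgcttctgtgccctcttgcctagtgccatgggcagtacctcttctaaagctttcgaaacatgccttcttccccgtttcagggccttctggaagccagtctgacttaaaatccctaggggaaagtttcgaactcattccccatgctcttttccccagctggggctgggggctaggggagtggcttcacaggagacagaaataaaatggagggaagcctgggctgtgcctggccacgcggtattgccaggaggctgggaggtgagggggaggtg
Cidec, start site 2: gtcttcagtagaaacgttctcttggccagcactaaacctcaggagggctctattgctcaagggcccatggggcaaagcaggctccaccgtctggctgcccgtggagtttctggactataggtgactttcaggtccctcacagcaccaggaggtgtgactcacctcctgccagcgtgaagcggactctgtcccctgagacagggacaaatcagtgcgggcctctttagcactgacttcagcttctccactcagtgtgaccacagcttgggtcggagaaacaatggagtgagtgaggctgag
Plin2: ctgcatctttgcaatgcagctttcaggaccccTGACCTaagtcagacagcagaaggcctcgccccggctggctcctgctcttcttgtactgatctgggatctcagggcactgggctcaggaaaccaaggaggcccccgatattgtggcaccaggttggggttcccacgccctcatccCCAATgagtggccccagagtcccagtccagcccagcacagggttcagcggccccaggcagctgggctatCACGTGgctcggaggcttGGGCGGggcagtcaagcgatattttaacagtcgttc
Plin4 held 1 match, a CCAAT box on the other strand, and the windows of Fitm1 and Cidec held none of the 6 motifs. Plin2 held 4 (half-site, CCAAT box, E-box and GC box). Of the other genes not called between fractions, Fitm2 held 1 match, Cideb 2, Plin3 4 and Plin5 5 and 3 at its 2 start sites. Plin1, which was not tested, held 0. Among 32851 promoters of this length, 16.3% held the half-site, 7.15% the E-box, 35.7% the GC box, 37.4% the CCAAT box, 13.6% the TATA box and 0.0396% the full repeat. In all, 9 of the 10 genes were searched, in 11 promoters, and the full repeat was found in 0 of them and the half-site in those of Plin2 and Plin5. No match says only that these letters are not in this window.

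Fitm1 (ENSMUSG00000022215, chromosome 14, 55575617 to 55576954, plus strand), the FIT protein best known from skeletal muscle, had the largest difference between fractions of the 8 genes tested. In high-fat cells it was at 540, 552 and 798 reads per 20 M in WT mice 1 to 3 and at 375, 518 and 393 in KO mice. In low-fat cells it was at 275 and 431 in WT mice 2 and 3, and lower than these in WT mouse 1. In KO mice it was at 186, 131 and 323, with the lowest value of all libraries in KO mouse 2. High-fat values were 3.51, 2.01 and 1.85 times the low-fat ones in WT mice 1 to 3. In KO mice 1 to 3 they were 2.02, 3.95 and 1.22 times as high. The largest ratio was thus that of KO mouse 2. Deviations of its 2 libraries from their group means did not correlate across genes (r = -0.011). High-fat and low-fat values did not overlap within either genotype. Such an upward separation was found in 8.69% of all genes tested in WT and 7.71% in KO, and a downward one in 10.4% and 5.71%. Its mean was 287 ± 139 with low and 630 ± 146 with high fat in WT, and 213 ± 98.9 and 429 ± 77.9 in KO (SD, n = 3 each). Over both genotypes it rose by 1.07 on the log2 scale (limma SE 0.28, 2.10-fold, adjusted p = 0.042). Of the skeletal muscle markers fixed as a list of 6 genes, Acta1 was at 0 in all libraries and Ckm reached at most 1, and the whole list summed to between 7 and 19. The antisense gene Gm15932 shares 109 exon bases with Fitm1 and stayed between 712 and 866 in all libraries, so reads of the 2 genes may be mixed in part.

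Plin4 (ENSMUSG00000002831, chromosome 17, 56100591 to 56109803, minus strand), a large perilipin with a long repeat region, lies 1797 bases from Plin5. Its low-fat values were 382, 485 and 525 in WT and 320, 446 and 195 in KO, and its high-fat values 1489, 617 and 1055 in WT and 909, 606 and 278 in KO. Fractions did not overlap in WT and overlapped in KO, where KO mouse 3 was low in both. The high-fat library held 3.90, 1.27 and 2.01 times the low-fat value in WT mice 1 to 3 and 2.84, 1.36 and 1.43 times in KO mice 1 to 3, so the ratio was highest in mouse 1 of each genotype. The same high-fat libraries had the highest sums of Kupffer cell or macrophage markers, 11637 in WT and 10086 in KO against at most 2393 in the other 4 high-fat libraries. Sums of sinusoidal endothelial markers were also highest in these 2 libraries, 13328 in WT and 8739 in KO. So were those of mostly nuclear-retained RNAs, read as a sign of RNA quality, at 163865 and 166503. The stellate sum was highest in WT mouse 1 (3699) but not in KO mouse 1 (2897 against 2976 in KO mouse 2). The part of these cells and of RNA quality in the Plin4 values was not tested. Over both genotypes the log2 fold change was 0.87 (limma SE 0.28, 1.83-fold, adjusted p = 0.109).

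Cidec (ENSMUSG00000030278, chromosome 6, 113424634 to 113435760, minus strand), also called FSP27, which drives the growth of large droplets in adipocytes and in fatty liver, was low but counted in every library. It was at 67, 57 and 103 reads per 20 M in WT low-fat and 158, 75 and 195 in WT high-fat libraries, and at 55, 66 and 41 in KO low-fat and 82, 102 and 69 in KO high-fat libraries. Fractions did not overlap in KO and overlapped in WT, where mouse 2 was low in both. The log2 fold change over both genotypes was 0.65 (limma SE 0.25, 1.57-fold, adjusted p = 0.173). The other FIT gene, Fitm2 (ENSMUSG00000048486, chromosome 2, 163466379 to 163472629, minus strand), the family member found in most tissues, ranged from 1197 to 1503 in low-fat and 1364 to 1924 in high-fat libraries, a log2 fold change of 0.14 (limma SE 0.12, adjusted p = 0.523). Its exons share 227 bases with 2310001K24Rik, listed at 124 to 188, and those of Plin4 share 17 bases with Hdgfl2.

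In the fit of 4 group means, limma thus called 1 of the 8 tested genes, Fitm1, between fractions over both genotypes, where 5.8% of all genes were called (4.96% higher and 0.833% lower). When the 2 libraries of a mouse were compared with each other, by a replicate block with a term for each mouse, 3 of the 8 were called, where 10.8% of all genes were (6.73% higher and 4.12% lower). That share rests on 1796 genes, which became 598 without WT mouse 1 and 2939 without KO mouse 2. The log2 fold changes were the same as without the block, 1.07 for Fitm1 (SE 0.20), 0.87 for Plin4 (SE 0.18) and 0.65 for Cidec (SE 0.12), and the limma adjusted p-values with the block were 0.013, 0.018 and 0.014. Over the 27 alternatives run for each gene the limma adjusted p-value lay between 0.0093 and 0.088 for Fitm1, between 0.018 and 0.237 for Plin4 and between 0.0087 and 0.312 for Cidec, and the fold change kept its sign. The call of Fitm1 without the block was lost when any 1 library was left out other than WT or KO low-fat library 3 (limma adjusted p of 0.063 to 0.088). Without the block, Plin4 was called only when KO high-fat library 3 was left out (limma adjusted p = 0.029) or with the same-mouse correlation (0.026), and Cidec only without WT high-fat library 2 (0.042) or with that correlation (0.040). With the block, leaving out a whole mouse left all 3 calls without KO mouse 1 or 2, Plin4 and Cidec without WT mouse 2, Plin4 and Fitm1 without WT mouse 3, Fitm1 alone without KO mouse 3 and Plin4 alone without WT mouse 1, and the limma adjusted p-values lost lay between 0.050 and 0.060. Within 1 genotype none of the 8 was called, with or without the block. All genes called made up 0% in WT and 1.03% in KO without the block (1.12% and 2.31% with it), and at an unadjusted p under 0.05 limma found 2118 genes in WT and 1456 in KO.

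**Figure D3:**
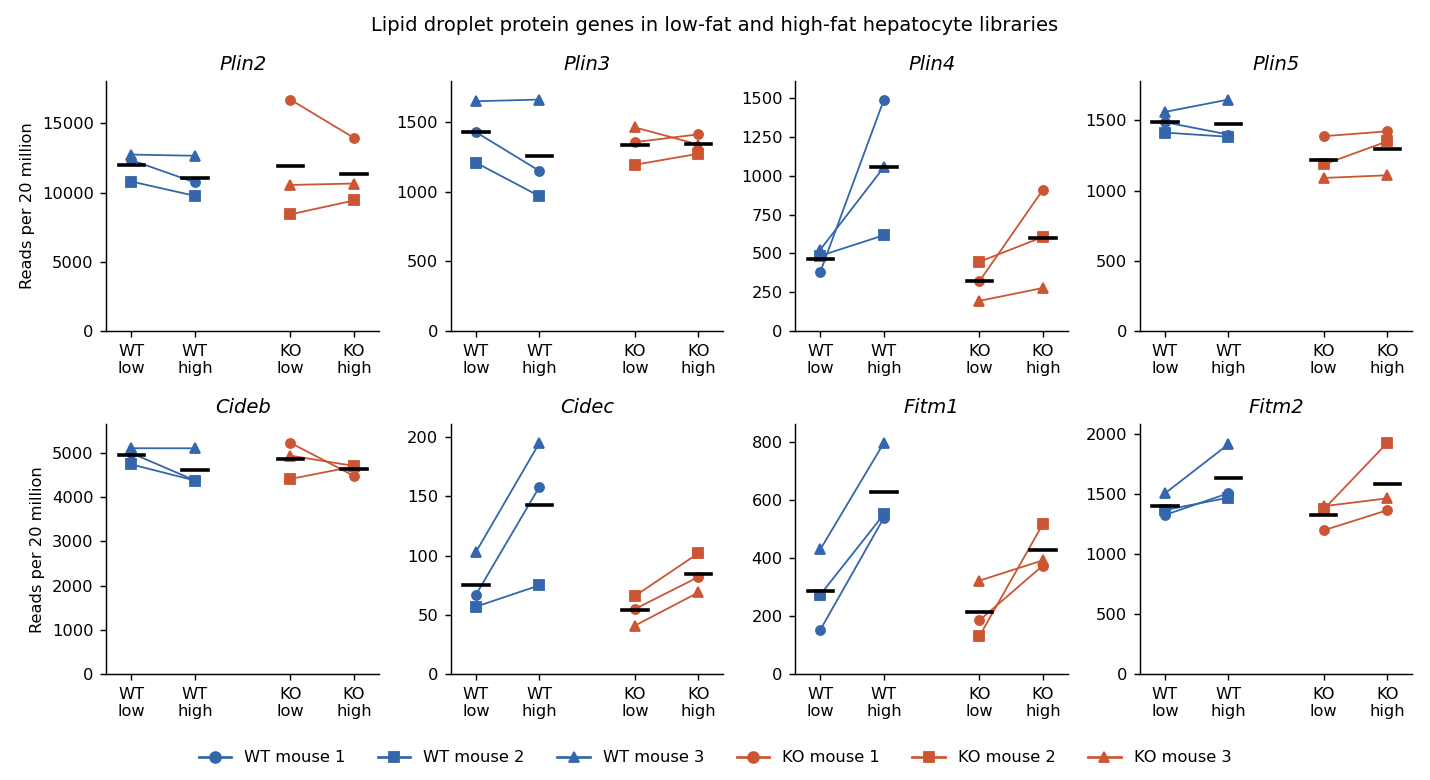
Reads per 20 M of the 8 tested genes in each library; lines join the low-fat and high-fat library of 1 mouse, blue WT and orange KO, symbols mark mice 1 (circle), 2 (square) and 3 (triangle), and black bars are group means (n = 3). Lines slope upward in all 6 mice for Plin4, Cidec, Fitm1 and, by less, Fitm2, and go both up and down for Plin2, Plin3, Plin5 and Cideb.

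**Figure D4:**
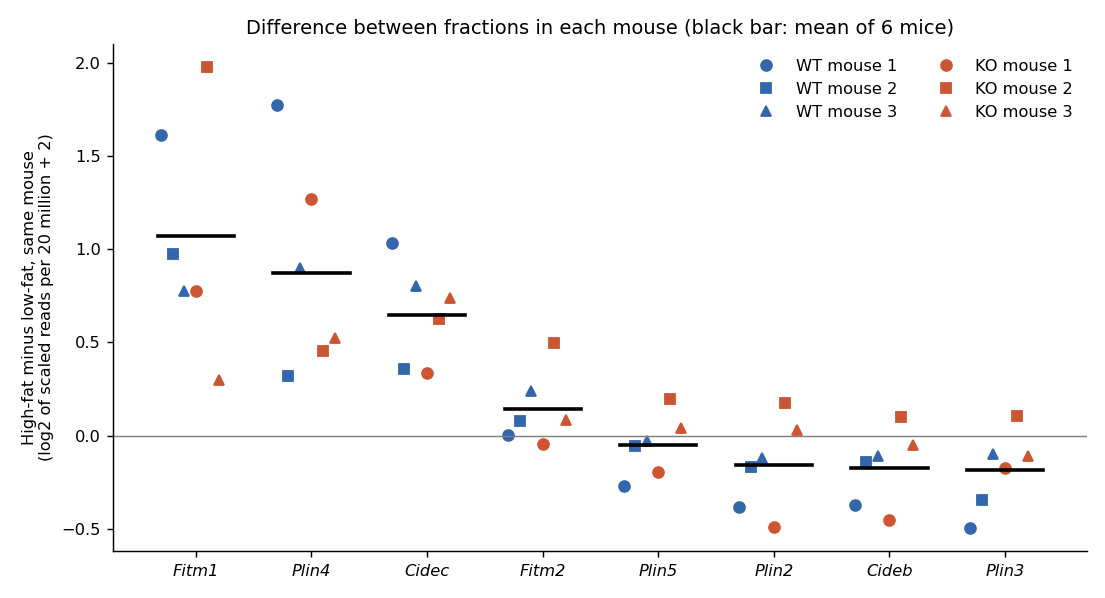
High-fat minus low-fat difference within each mouse on the log2 scale after scaling between libraries, 1 symbol per mouse (blue WT, orange KO); black bars are means of 6 mice. The means run from 1.07 for Fitm1 and 0.87 for Plin4 to -0.19 for Plin3, and Fitm1, Plin4 and Cidec have all 6 mice above 0.

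Other readings differed between the same libraries. Besides the markers of stellate, Kupffer and endothelial cells given above, the summed level of 9 pericentral hepatocyte markers (among them Glul and Cyp2e1) was 53727 to 99184 in low-fat and 94408 to 130073 in high-fat libraries and higher with high fat in 6 of 6 mice. Its largest part was Cyp2e1, at 25608 to 47248 and 55304 to 70040. After scaling, Glul was higher in 4 of 6 mice, Slc1a2 in 5 and the other markers of this list each in 6. The summed level of 8 periportal markers was 194509 to 233377 and 148089 to 177932, and lower in 6 of 6. A list of 5 RNAs, most of them retained in the nucleus, read as a sign of RNA quality, summed to between 31786 and 134519 and between 37295 and 166503, higher in 5 of 6. The sum went from 115419 to 116066 in WT mouse 2 and from 134519 to 37295 in KO mouse 2. After scaling, Malat1 was higher in 5 of 6 mice and Neat1 in 2, and none of the 4 tested RNAs of the list was called. Of the adipocyte markers, Fabp4, a fatty acid binding protein, was at 14 to 33 in low-fat and 32 to 252 in high-fat libraries (log2 fold change 1.60, limma SE 0.34, adjusted p = 0.017). Lpl was at 193 to 939 and 570 to 2976 (limma adjusted p = 0.078, and 0.0028 with the block) and Cfd at 10 to 165 and 24 to 432 (limma adjusted p = 0.270, and 0.0070 with the block). These 3 markers were higher with high fat in 6 of 6 mice. The other adipocyte markers that passed the filter, Car3 and Adrb3, were each higher in 5 of 6 after scaling. Neither was called (limma adjusted p of 0.415 and 0.603, and 0.291 and 0.131 with the block). Adipoq, not tested, reached 3 in low-fat libraries and was at 0 in all high-fat libraries. The part of other cell types and of liver zones in the differences of Fitm1, Plin4 and Cidec was not tested.

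The KO was then compared with WT in each fraction. None of the 8 tested genes was called, in low-fat or in high-fat cells, where 1 gene of all tested (0.00604%) was called in each, and that gene was Ptprk (log2 fold changes of -1.14 and -0.96, SE 0.10 each, limma adjusted p of 0.0023 and 0.013). The replicate block had here a term for each replicate number, shared by WT and KO, although these numbers mark different mice. With it the share was 0.00604% in low-fat and 0.0121% in high-fat cells, again with none of the 8. At an unadjusted p under 0.05 there were 270 and 321 of all genes and none of the 8. Scaled WT and KO values overlapped for each of the 8 in both fractions, while 2.2% of all genes lay wholly higher and 3.14% wholly lower in KO low-fat cells, and 2.42% and 2.48% in KO high-fat cells. Over the 8 genes the median log2 fold change was -0.19 in low-fat and -0.08 in high-fat cells, against -0.01 and 0.02 over all genes tested. A positive value was found for 0 of the 8 in low-fat and 3 of the 8 in high-fat cells, beside 46.65% and 54.12% of all genes, and leaving out 1 library turned the low-fat sign of Plin2, Plin3, Cideb or Fitm2.

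The genes with the largest estimates were again Plin4, Cidec and Fitm1. Plin4 had a mean of 464 ± 73.8 in WT and 320 ± 126 in KO low-fat cells, and of 1054 ± 436 and 598 ± 316 in high-fat cells (SD, n = 3 each). Its log2 fold changes were -0.60 and -0.85 (SE 0.40 each, limma adjusted p of 1 and 0.999). For Cidec the log2 fold changes were -0.45 and -0.62 (SE 0.35 each), and for Fitm1 -0.40 and -0.51 (SE 0.39 each). Beside these values, the sinusoidal endothelial markers summed to between 2273 and 2405 in WT and between 979 and 2039 in KO low-fat libraries, and the Kupffer cell or macrophage markers to between 671 and 1365 and between 480 and 768. In high-fat libraries the endothelial sums were 5097 to 13328 in WT and 4135 to 8739 in KO. The Kupffer cell or macrophage sums there were 2309 to 11637 and 2124 to 10086. Pericentral hepatocyte markers summed to 53727 to 99184 in WT and 53826 to 72681 in KO low-fat libraries. In high-fat libraries they summed to 102717 to 130073 and 94408 to 108999. The median log2 fold change of these 9 markers was -0.52 in low-fat and -0.465 in high-fat cells. That of Cyp2e1, the largest part of the sums, was 0.04 and 0.05. None of these markers was called between genotypes, and their part in the estimates was not tested. Plin5 came closest to the threshold in low-fat cells, with a log2 fold change of -0.29 (SE 0.13, unadjusted p = 0.051, limma adjusted p = 1). Its 3 KO low-fat values lay below the 3 WT values as deposited, 1091 to 1388 against 1414 to 1561, but overlapped them once libraries were scaled to each other, at 1130 to 1478 against 1373 to 1683. Plin2, Plin3, Cideb and Fitm2 had log2 fold changes between -0.09 and 0.16 in both fractions.

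**Figure D5:**
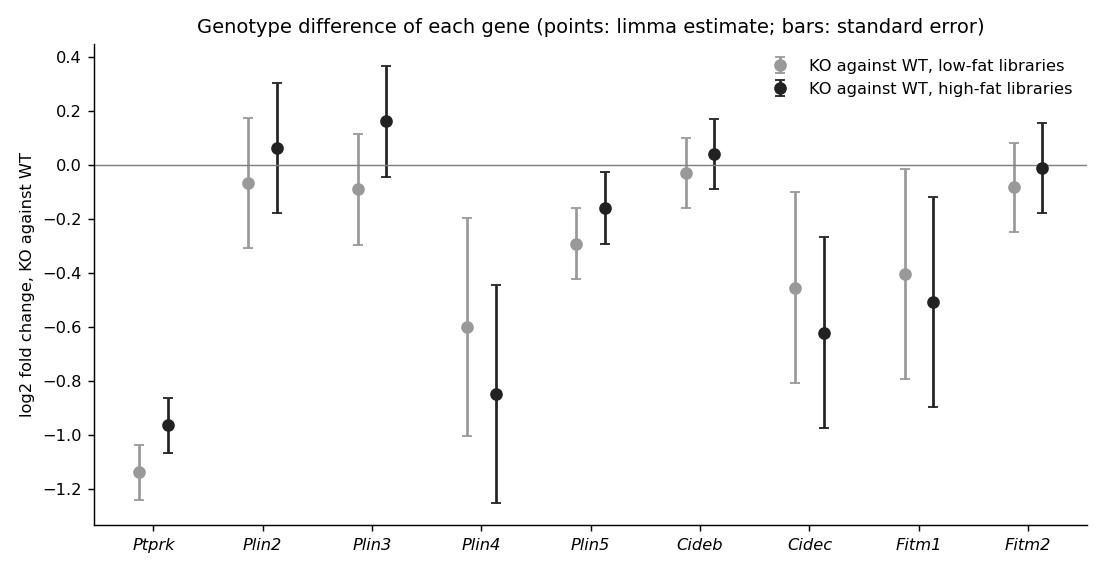
log2 fold change of KO against WT in low-fat (grey) and high-fat (black) libraries for Ptprk and the 8 tested genes; bars are standard errors from limma (3 against 3 libraries). Ptprk lies at -1.14 and -0.96, and the error bars of Plin4 and Cidec are 0.40 and 0.35 to either side.

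The interaction term compared the fraction difference of KO with that of WT mice. None of the 8 genes was called, as was none of all genes tested (0% by limma, 23 genes at an unadjusted p under 0.05, or 58 with the replicate block). The difference of Fitm1 within a mouse averaged 1.12 ± 0.44 in WT and 1.02 ± 0.87 in KO mice on the log2 scale (SD, n = 3 each), that of Plin4 0.998 ± 0.73 and 0.75 ± 0.45, and that of Cidec 0.73 ± 0.34 and 0.57 ± 0.21. The interaction estimates were -0.11 (SE 0.55), -0.25 (SE 0.57) and -0.17 (SE 0.50), and the limma adjusted p-value was 1 for each.

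Other genes of lipid droplets and their regulators were read from 2 fixed lists. Of 24 genes of droplet enzymes, lipase regulators and droplet assembly, all tested, 0 were called between genotypes, 0 between fractions over both genotypes without the block and 3 with it, all lower in high-fat cells. Of all genes, 5.8% were called without the block. With the block 10.8% were called, 6.73% higher and 4.12% lower, beside 0 of the 24 higher and 3 of the 24 lower. The median log2 fold change between fractions was -0.13 against -0.05 over all genes. The 3 were Hsd17b13, a droplet retinol dehydrogenase of hepatocytes, at -0.59 (limma SE 0.16, adjusted p = 0.061, and 0.011 with the block), Pnpla3, a droplet lipase homologue, at -0.74 (limma SE 0.60, adjusted p = 0.517, and 0.013 with the block), and Acsl3, an acyl-CoA synthetase of nascent droplets, at -0.37 (limma SE 0.19, adjusted p = 0.307, and 0.018 with the block). After scaling, each was lower with high fat in 6 of 6 mice. Hsd17b13 lay between 9171 and 12066 reads per 20 M in low-fat and between 5935 and 9410 in high-fat libraries.

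Of 12 transcription factors and coactivators known to act on droplet genes, 0 were called without the block and 4 with it between fractions over both genotypes, beside 5.8% and 10.8% of all genes. Pparg, the nuclear receptor of adipogenesis, with Cidec among its known targets, was between 26 and 113 reads per 20 M in low-fat and between 91 and 270 in high-fat libraries, higher in 6 of 6 mice. Its log2 fold change was 1.19 (limma SE 0.33, adjusted p = 0.057, and 0.0030 with the block), and with the block it was also called within WT (limma adjusted p = 0.046) and within KO (limma adjusted p = 0.030). Ppargc1a, Srebf1 and Hnf4a were lower, at -0.42, -0.36 and -0.32 (limma adjusted p with the block of 0.0084, 0.032 and 0.043, and without it 0.146, 0.377 and 0.171), each in 6 of 6 mice after scaling. Ppara, the main PPAR of hepatocytes, named after its value was seen, differed by 0.03 (limma SE 0.21, adjusted p = 0.946).

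Among the 10517 more abundant genes (mean value of 100 or more), the 2 whose log2 levels most resembled each tested gene over the 12 libraries were listed, as a description of libraries that share mice and fractions. For Cidec these were Cebpd (r = 0.865), a transcription factor of early adipogenesis, and Cd36 (r = 0.862), a fatty acid uptake receptor. Cd36 was between 909 and 2027 reads per 20 M in low-fat and between 1360 and 2977 in high-fat libraries and higher in 6 of 6 mice. Plin4 was most like Ssbp1 (r = 0.928) and Sema6b (r = 0.904), Fitm1 like Nxpe2 (r = 0.941) and Lhpp (r = 0.938), Fitm2 like Nrn1 (r = 0.936) and Sycp3 (r = 0.920), Plin2 like Pdrg1 (r = 0.933) and Terf2ip (r = 0.919), Plin3 like Ccz1 (r = 0.948) and 9030624J02Rik (r = 0.931), and Plin5 like Fmo5 (r = 0.901) and A730015C16Rik (r = 0.842). Cideb was most like the overlapping gene Nop9, with Lap3 next (r = 0.985). Among the 8 genes themselves the closest pairs were Plin3 with Cideb (r = 0.839) and Plin4 with Cidec (r = 0.828), and the farthest Plin4 with Cideb (r = -0.517).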

How the data were processed

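RNA was polyA-selected, per the labels. The authors deposited 1 table in which the read counts of each gene are scaled to 20 M (mega) per library and rounded up, a score in the sense that the values are no longer counts: each of the 12 columns sums to 20.01 M. The genome build is mm9 per the submitters' processing notes. The aligner, counter, annotation and strandedness are not given in the sources used here. Depth was estimated from the spacing of the low values, which shows what 1 read is worth. Coordinates, exon lengths and overlaps are those of GENCODE M21 on GRCm38, matched by Ensembl identifier for all 10 genes, which may differ from the models the authors counted on.

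The filter kept 16563 of 52636 genes, those reaching 10 in 3 or more libraries. Values were scaled between libraries by a trimmed mean of M values and transformed as log2(value + 2), on which fold changes are understated for low genes. limma 3.58.1 in R 4.3.3 fitted 4 group means over 12 libraries, with variances moderated along a trend in mean level. Tests were two-sided, with Benjamini-Hochberg adjustment over all genes tested and calls under 0.05. P-values of this fit measure the spread between libraries within a group and take no account of the 2 fractions sharing mice. With a term for each mouse, those for the fractions measure the spread of differences within mice. The method was tested on simulated data.

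Same-numbered libraries of both fractions come from 1 mouse, per the labels. Their deviations from the group means correlated across genes with r of 0.471 to 0.581 in WT and -0.011 to 0.459 in KO. In WT each library matched its own number best. In KO this held for number 3, for number 1 in 1 direction only (r = 0.0415), and for number 2 in neither direction (r = -0.011). The members and gene lists were chosen with earlier results of these data known. Named genes are the 10 members, Ptprk, genes of 2 fixed lists called with or without the block, and the 2 genes most like each tested member. Markers of cell types are named beside their lists, and Ppara was added after its value was seen. Alternatives were other pseudocounts, filters and scalings, a fit of only the libraries compared, a replicate block, a same-mouse correlation and leaving out each library. The block fit was also run without each mouse and with other scalings, which was chosen after seeing the data.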

Additional observations from a re-analysis of the deposited data

How the results depend on the processing

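The number of droplet genes called was 0 under each alternative run in the comparisons of genotypes, in those of fractions within 1 genotype and in the interaction. For the fractions over both genotypes it was 1 (Fitm1) and rose to 3 with the replicate block and to 3 with the same-mouse correlation (0.349), and it was 3 with the block under deposited scaling alone and under median-of-ratios scaling. It ranged from 0 to 1 when 1 library was left out, and from 1 to 3 when 1 mouse was left out of the block fit. The block changed no other call of the 8 genes.

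For KO against WT the replicate numbers mark different mice. Deviations of same-numbered libraries correlated with r of 0.252 to 0.397 in low-fat cells, each best with its own number, and of -0.174 to 0.491 in high-fat cells, and the block called 1 and 2 genes of all tested.

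Over all genes, the calls between fractions were 0 in WT and 171 in KO without and 185 and 382 with the replicate block, 371 and 545 with the same-mouse correlation, and 0 to 137 and 0 to 339 when 1 library was left out (137 without KO low-fat library 1, 339 without WT high-fat library 1, and in KO 0 without KO low-fat library 1 or any 1 KO high-fat library). In KO they were 0 in a fit of only the libraries compared, 102 with deposited scaling alone and 111 without the filter, and in WT 1 with a pseudocount of 10. Over both genotypes they were 960, and 1796 with the block, 2035 with the same-mouse correlation, and as few as 609 without 1 library (KO low-fat library 1, or 613 without KO high-fat library 1). In the block fit they were 598 without WT mouse 1 and 2939 without KO mouse 2. KO against WT in high-fat cells gave 0 calls in a fit of only the libraries compared and 0 to 1 without 1 library, with the call of Ptprk lost without WT high-fat library 2 or 3 or KO high-fat library 1. Between deposited and trimmed-mean scaling the median of all genes for the fractions in WT moved from 0.04 to -0.07.

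Deposited scaling alone turned the difference between fractions of Plin3 in KO to 0.0080 and that of Plin5 over both genotypes to 0.035, with and without the block. In the block fit, Plin5 over both genotypes was at 0.019 without KO mouse 1 and at 0.0048 without WT mouse 1. Leaving out 1 library turned estimates that were not called. For KO against WT in low-fat cells the ranges were -0.36 to 0.18 for Plin2, -0.25 to 0.053 for Plin3, -0.11 to 0.067 for Cideb and -0.14 to 0.0046 for Fitm2. In high-fat cells they were -0.037 to 0.20 for Plin2, -0.011 to 0.41 for Plin3, -0.031 to 0.15 for Cideb and -0.19 to 0.15 for Fitm2. Between fractions they were -0.046 to 0.19 for Fitm2 in WT, -0.34 to 0.22 for Plin2, -0.17 to 0.013 for Plin3 and -0.057 to 0.15 for Plin5 in KO, and -0.28 to 0.016 for Plin2 and -0.11 to 0.034 for Plin5 over both genotypes. For the interaction they were -0.12 to 0.40 for Plin2, -0.60 to 0.15 for Plin4, -0.024 to 0.18 for Cideb, -0.57 to 0.14 for Cidec, -0.49 to 0.23 for Fitm1 and -0.12 to 0.23 for Fitm2. The cause was not tested. Depth limits Plin1, which lies under the level of 3 reads in every library, and Cidea, which lies under it in the KO libraries and in WT low-fat library 1.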
